A study of Arabidopsis thaliana with 6 samples.

Results

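B-box zinc finger proteins (BBX proteins) are plant transcriptional regulators that carry zinc-binding B-box domains near the N-terminus and act in light signalling, flowering and the shade response. Many of them meet at the bZIP factor HY5, which drives the seedling's development in light, and at the ubiquitin ligase COP1, which removes HY5 and several BBX proteins in the dark. BBX18, BBX19, BBX24, BBX25 and BBX32 are known mainly as negative regulators of this programme, whereas BBX20, BBX21 and BBX22 promote it. COL1 and COL2 are the closest relatives of the flowering regulator CONSTANS.

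The 10 genes described here were selected by their gene identifiers among the 33331 genes of the expression table. They are COL1 (AT5G15850), COL2 (AT3G02380), BBX18 (AT2G21320), BBX19 (AT4G38960), BBX20 (AT4G39070), BBX21 (AT1G75540), BBX22 (AT1G78600), BBX24 (AT1G06040), BBX25 (AT2G31380) and BBX32 (AT3G21150). All 10 matched the TAIR10.1 annotation, in which BBX24 also carries the name STO, BBX25 the name STH, BBX22 the name LZF1 and BBX20 the name BZS1.

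The transcripts were measured by RNA immunoprecipitation followed by sequencing (RIP-seq), which recovers the RNA that is crosslinked to a tagged protein. The protein was AtGRP7, a clock-regulated RNA-binding protein, fused to GFP, driven by its own promoter and regulatory regions and carried in the grp7-1 mutant background at both time points. Arabidopsis thaliana plants spent 16 days in cycles of 12 h of light with 12 h of darkness and were then kept in continuous light, and their aerial parts were fixed with 1% formaldehyde after 36 h (LL36) or 24 h (LL24). Each time point had 3 libraries, titled as replicates and described by the study as biological replicates, each from a bulk of plants. The p-values below measure the spread between these libraries only. Without input RNA a RIP-seq level can reflect how much of a transcript was present, how much of it was bound, or both, and in bulk tissue fewer cells with a transcript and less of it per cell cannot be told apart. No mock precipitation is among the 6 libraries, so how much RNA was recovered as background was not measured in them. The study itself set its RIP-seq against poly(A) RNA of wild-type plants and checked background by RIP-qPCR for selected transcripts. Neither was used here.

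Levels are given in scaled TPM, the deposited TPM after rescaling the listed genes of each library to a sum of 1000000 and division by a scaling factor per library. TPM is a level per transcript length, so genes can be set beside each other, but it holds neither read counts nor depth. The listed TPM summed to 9.59% to 16.6% of 1000000, and the scaling factors were between 0.772 and 1.26. Across the tested genes the Spearman correlation was 0.913 to 0.930 between libraries of the same time point (6 pairs) and 0.814 to 0.837 between libraries of different time points (9 pairs). The AtGRP7 transcript, which includes that of the transgene, had 1586, 1898 and 1903 scaled TPM at LL36, against 20.4, 22.0 and 25.7 scaled TPM at LL24, and how much AtGRP7-GFP protein was recovered was not measured by these files. The 4 leaf markers summed to 25299 to 28499 scaled TPM at LL36 and 26704 to 37066 at LL24, and 4 or 5 of the 6 root markers were listed at 0 in each library, with summed levels of at most 9.27 at LL36 and, at LL24, of at least 10.2.

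Some sequence features of the genes help to read the values that follow. AtGRP7 is known to bind RNA rich in U and C, and the longest unbroken runs of C and U in the longest annotated mRNA are therefore shown for the genes called as different between the time points and for BBX21, which was not. The run is in capitals and up to 4 neighbouring bases on each side are in lower case, from the TAIR10.1 genome with the RefSeq gene models.
COL2: uuagCCUUCCCUCCUUUCUaauu
BBX25: cuuaUCUUCUUCUCUUCUCCUCaacu
BBX18: CUUUCUUCUUCUUCUUCUUCUUCUUCUUCU
BBX32: accgCUCUUUCUCUCCCUCaauc
BBX24: aacaCUCUCUCCCUCUUUguuc
BBX22: gagaCCCUCUCUUUUUUUUUUgaua
BBX21: aucaCUCCUCCUCCUCUUUCUUCUaaua
The run lay in the 5′ UTR in each of these genes except BBX21, where it was coding. The BBX18 run was 49 bases long, of which the first 30 are shown, and a run of that length or longer occurred in 0.149% of the 27443 genes compared. The others are common: a run as long as that of BBX24 (14 bases) occurred in 46.5% of the genes, and the runs of COL2 and BBX32 (15 bases each) were matched or exceeded in 38.5%. BBX22 (17 bases), BBX25 (18 bases) and BBX21 (20 bases) lay at 26.3%, 21.4% and 14.6%. Of the genes not shown, BBX19 had a run of 26 bases in its 5′ UTR (4.54%), COL1 one of 16 bases (31.7%) and BBX20 one of 13 bases (55.6%). RIP-seq does not locate the bound bases, so whether AtGRP7 occupied any of these runs was not measured by these files. The study also used iCLIP, a method that maps the crosslinked bases. None of the 10 genes is on its iCLIP list of transcripts with AtGRP7 crosslink sites at LL36. That list names 858 genes, against 33331 in the expression table, and holds 1 of the other BBX family genes. The study describes iCLIP targets as biased to high expression, and its LL24 list was not read. Absence from the list was therefore not read as absence of binding.

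The evening element, the letters AAAATATCT on either strand, is a promoter sequence bound by clock factors. It was found in the 250 bases before the start of 2 of the 10 genes, COL2 and BBX24, and in 2.36% of 27443 annotated promoters of that length. Both matches are shown with 10 bases on each side and the element in capitals.
COL2, 189 bases before the start, chr3:489638-489666, minus strand: ataagttaccAAAATATCTtcttgttact
BBX24, 52 bases before the start, chr1:1830017-1830045, minus strand: gaatataataAAAATATCTaaaggtagga
No annotated exon covered either match. The G-box (CACGTG), which HY5 and the PIF factors bind, and the CCA1-binding site (AAAAATCT), searched on both strands, were in none of the 10 windows, against 6.49% and 6.69% of all promoters.

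The comparison of LL36 with LL24 asked which RNAs were recovered with AtGRP7 to a different extent at these hours of the clock cycle. Of the 10 genes, 5 were lower at LL36 (COL2, BBX25, BBX18, BBX32 and BBX24), 1 was higher (BBX22) and 1 was not called (BBX21). The remaining COL1, BBX19 and BBX20 were under the limit for testing, a mean rescaled TPM of 1 over the 6 libraries, so 7 of 10 passed it. Over all 9890 genes tested, 13.4% were called lower and 10.2% higher at LL36 (limma with Benjamini-Hochberg adjustment at 0.05). COL2, BBX25, BBX18 and BBX32 had an LL36 mean below 1 scaled TPM and passed the limit only through LL24, and BBX22 only through LL36, so the share of calls among the genes that passed is not evidence by itself. BBX24 and BBX21 were above 1 scaled TPM in every library. With no limit, so that every gene above 0 entered, 8 of the 10 were called, 7 lower and 1 higher, while 6.09% of 22084 genes were called lower and 3.81% higher. The median log2 difference in that fit was −1.21 for the 10 genes and −0.01 for all 22084. All 3 LL36 libraries lay below all 3 LL24 libraries for 7 of the 10 genes, a pattern shown by 16.3% of the genes above 0. Both the calls without a limit and these 7 genes include COL1, which could not be quantified on its own, and BBX19, whose call depended on single libraries (both below).

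**Figure D1:**
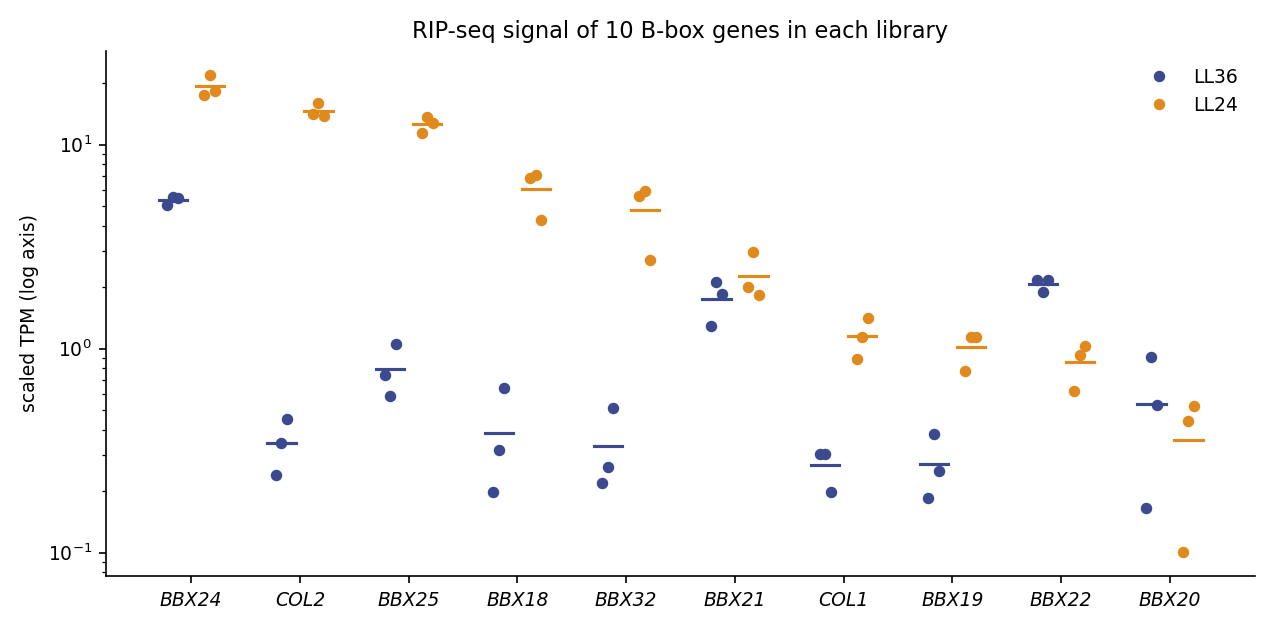
Scaled TPM (log axis) of the 10 B-box genes in each library, with LL36 in blue left of LL24 in orange, points for the 3 libraries and a bar for their mean. The genes run from the highest to the lowest LL24 mean. The points separate for all genes except BBX21 and BBX20, with LL36 above LL24 for BBX22 alone.

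BBX24 and BBX25 are paralogous repressors of light-dependent development that bind HY5 and keep it from activating its targets. BBX24 had 5.09, 5.55 and 5.45 scaled TPM at LL36, against 17.6, 22.1 and 18.4 at LL24. It had the highest listed level of the 10 at both time points. COL1 is ranked here as listed, although it could not be quantified on its own (below). BBX24 was also the steadiest at LL36, where its coefficient of variation was 4.51%, against 12.4% at LL24. The mean was 3.61-fold lower at LL36 (log2 difference −1.67, SE 0.12, limma adjusted p = 0.000114, n = 3 each), the 180th largest decrease of the 9890 genes.

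BBX25 had 0.740, 0.587 and 1.06 scaled TPM at LL36, against 11.5, 13.7 and 12.7 at LL24. All LL24 libraries were far above all LL36 libraries. The mean was 15.9-fold lower at LL36 (log2 difference −2.93, SE 0.13, limma adjusted p = 2.07e-05), the 25th largest decrease. The paralogs thus differed in the size of the decrease, with 95% intervals of −1.95 to −1.40 for BBX24 and −3.24 to −2.63 for BBX25 on the log2 scale, although the difference between them was not tested. Their coding sequences were identical at 78.2% of 711 aligned bases, and no stretch of 100 nt, the read length, was shared between any pair of the 10 genes.

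BBX18, BBX19 and BBX32 are further repressors of light responses. BBX18 and BBX19 are close relatives (79.6% identity over 407 aligned coding bases), and BBX32 is a family member that interacts with BBX21. BBX18 had 0.197, 0.318 and 0.639 scaled TPM at LL36, against 6.86, 7.09 and 4.27 at LL24. It was 15.8-fold lower at LL36 (log2 difference −2.34, SE 0.20, limma adjusted p = 0.000302), the 66th largest decrease.

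BBX32 had 0.219, 0.262 and 0.514 scaled TPM at LL36, against 5.63, 5.93 and 2.73 at LL24. The groups did not overlap, but LL24 replicate 3 was the lowest and LL36 replicate 3 the highest of its group, as for BBX18. The mean of BBX32 was 14.4-fold lower at LL36 (log2 difference −2.07, SE 0.25, limma adjusted p = 0.0012), the 97th largest decrease. BBX32 is annotated with 1 exon and overlaps the neighbouring AT3G21140 by 13 bases, with no shared stretch of 100 nt.

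BBX19, which lowers the level of the clock protein ELF3, had 0.185, 0.381 and 0.251 scaled TPM at LL36, against 0.773, 1.14 and 1.13 at LL24. Its values were thus low at both time points but did not overlap. Without a limit, BBX19 was 3.73-fold lower at LL36 (log2 difference −0.66, SE 0.11, limma adjusted p = 0.0151). This call was lost when any of LL36 replicate 1, LL36 replicate 3, LL24 replicate 2 or LL24 replicate 3 was left out (adjusted p = 0.081, 0.0655, 0.063 and 0.063) and with the TPM as deposited (0.101).

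COL2, the CONSTANS relative, showed the largest decrease of the 10 genes. It had 0.239, 0.343 and 0.451 scaled TPM at LL36, against 14.2, 15.9 and 13.9 at LL24. By listed level it was the second most abundant gene of the group at LL24. At LL36 it could not be separated from BBX20, BBX18, BBX32, BBX19 and COL1 by its range. The mean was 42.6-fold lower at LL36 (log2 difference −3.54, SE 0.11, limma adjusted p = 7.22e-06), the 9th largest decrease of all tested genes. In the deposited TPM, the LL36 values were 0.0324, 0.0530 and 0.0334, so the ratio rests on values near 0. The COL2 transcript shared 15.7% of its stretches of 100 nt with AT3G02370 and AT3G02390 on the opposite strand, whose levels were at most 0.218 scaled TPM in any library.

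COL1, whose overexpression shortens circadian periods, could not be quantified on its own. It had 0.304, 0.304 and 0.198 scaled TPM at LL36, against 0.892, 1.14 and 1.41 at LL24. It was under the limit, and without one it was 4.27-fold lower at LL36 (log2 difference −0.75, SE 0.12, limma adjusted p = 0.00927), a call that was lost without LL36 replicate 1 (0.0537) and with the TPM as deposited (0.109). However, 94% of the stretches of 100 nt in the COL1 transcript also lie in the transcripts of AT5G15845, a long noncoding RNA gene on the opposite strand (chr5:5173081-5178291, plus strand) that covers all 1807 bases of COL1 (chr5:5176091-5177897, minus strand). Whether strand was used in the quantification is not stated, and reads of the pair cannot be told apart without it.

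The antisense gene AT5G15845, singled out after its values had been seen, had 1.41, 0.965 and 2.02 scaled TPM at LL36, against 33.8, 26.9 and 35.9 at LL24. It was 22.0-fold lower at LL36 (log2 difference −3.77, SE 0.18, limma adjusted p = 2.63e-05), the 5th largest decrease of the 9890 genes. COL1 and AT5G15845 together summed to 1.73 ± 0.473 scaled TPM at LL36 and 33.4 ± 4.80 at LL24 (SD, n = 3 each). The sums of the time points did not overlap. As listed, COL1 made up 16.9% ± 7.54 of this sum at LL36 and 3.47% ± 0.796 at LL24. Since the use of strand is not stated, this split and the levels listed for AT5G15845 may include reads of the other gene. COL1 and COL2 were identical at 79.2% of 1001 aligned coding bases.

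**Figure D2:**
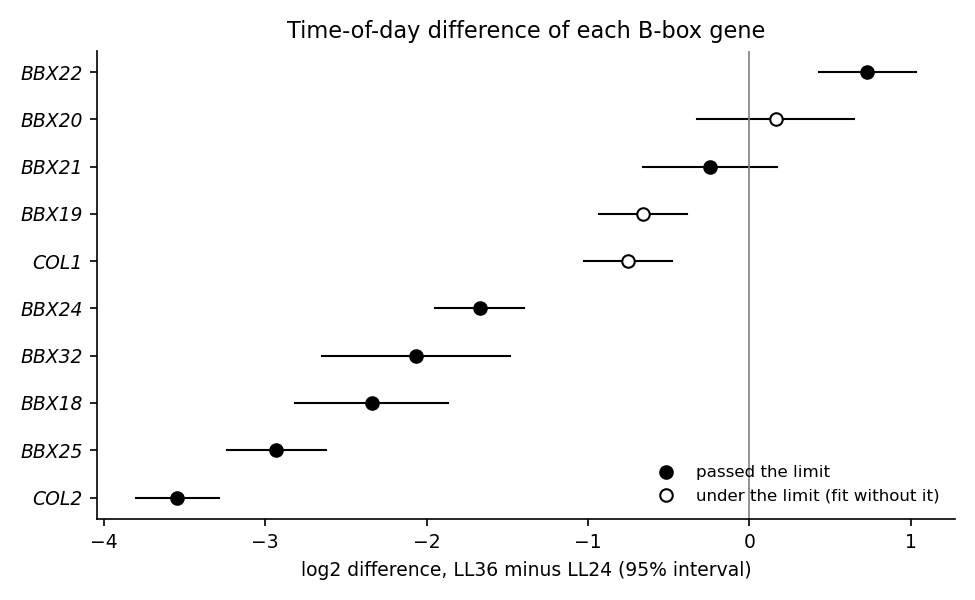
Log2 difference (LL36 minus LL24) of each of the 10 genes with its 95% interval from limma. Filled points passed the limit, and open points (BBX20, BBX19 and COL1) come from the fit without it. The differences run between 0.73 for BBX22 and −3.54 for COL2, and the intervals of BBX20 and BBX21 include 0.

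Of the 3 genes that promote light-dependent development, 1 was higher at LL36, 1 was not called and 1 was under the limit. BBX22, an activator that works with HY5 and is degraded through COP1, had 2.17, 1.90 and 2.17 scaled TPM at LL36, against 0.619, 0.932 and 1.03 at LL24. It was the only gene of the 10 with every LL36 library above every LL24 library. The mean was 2.42-fold higher at LL36 (log2 difference 0.73, SE 0.13, limma adjusted p = 0.00659), the 589th largest increase. This call depended on the scaling, since the log2 difference was 0.67 (adjusted p = 0.0543) after rescaling to 1000000 alone and 0.14 (0.307) with the TPM as deposited.

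BBX21, which binds the HY5 promoter and activates it, had 1.30, 2.13 and 1.85 scaled TPM at LL36, against 2.01, 2.98 and 1.84 at LL24. The groups overlapped. Its log2 difference was −0.24 (SE 0.18, limma adjusted p = 0.367), with a 95% interval of −0.66 to 0.17. The 1 added to each scaled TPM before the log limits how large a decrease a gene at this level can show. The interval was therefore not compared with the decreases of BBX24, COL2 or BBX25.

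BBX20, a regulator at which light and brassinosteroid signals meet, had the lowest listed level of the 10 at LL24. It had 0.165, 0.906 and 0.529 scaled TPM at LL36, against 0.100, 0.443 and 0.524 at LL24. The libraries of one time point differed more than the time points did, with coefficients of variation of 69.5% at LL36 and 63.2% at LL24. Without a limit its log2 difference was 0.16 (SE 0.20, limma adjusted p = 0.686; 95% interval −0.32 to 0.65).

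**Figure D3:**
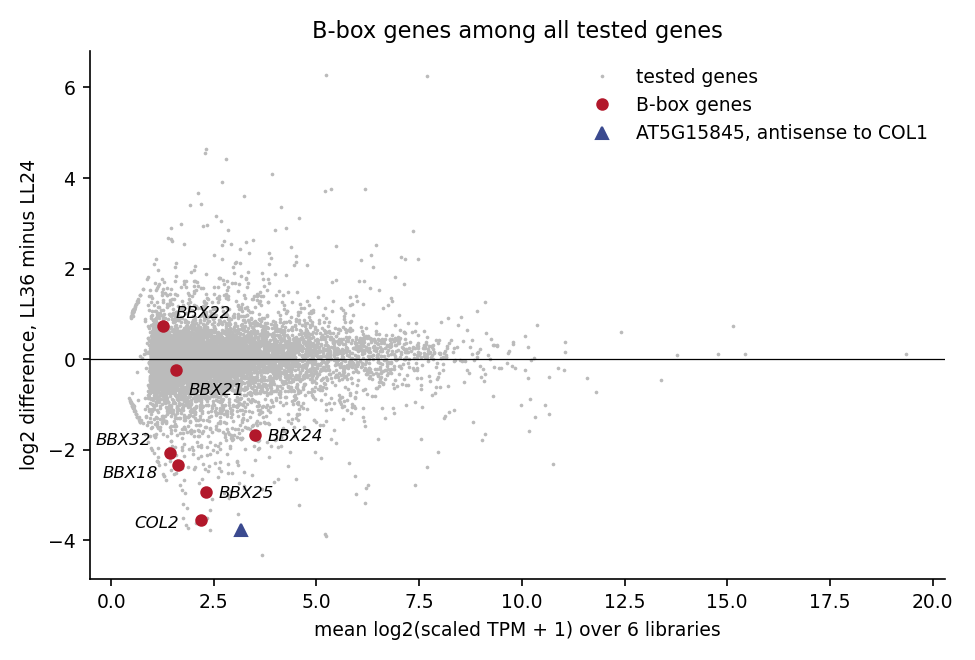
Log2 difference (LL36 minus LL24) against the mean log2(scaled TPM + 1) over the 6 libraries for the 9890 tested genes in grey, the 7 B-box genes among them in red and AT5G15845 as a blue triangle. COL2, BBX25, BBX18 and BBX32 lie at the lower edge of the cloud, and BBX24 is the most abundant of the 7.

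Because the decreases were unequal, the make-up of the group changed. The 10 genes summed to 10.6, 12.7 and 13.1 scaled TPM at LL36, against 60.1, 71.4 and 58.0 at LL24, without overlap. The mean sum was 12.1 ± 1.34 at LL36 and 63.2 ± 7.20 at LL24 (SD, n = 3 each), 5.21-fold lower at LL36. These sums, and the shares and order below, take COL1 as listed. It could not be told apart from AT5G15845, and the pair summed to 33.4 scaled TPM at LL24. BBX24 made up 44.5% ± 3.27 of the sum at LL36 and 30.6% ± 1.32 at LL24. COL2 made up 2.80% ± 0.599 at LL36 and 23.3% ± 0.872 at LL24, and BBX25 made up 6.55% ± 1.75 and 20.1% ± 1.62. The shares of the activators were larger at LL36 than at LL24: BBX22 had 17.3% ± 2.80 at LL36 and 1.37% ± 0.377 at LL24, and BBX21, whose own level was not called, had 14.4% ± 2.29 and 3.56% ± 0.534. BBX20 had 4.24% ± 2.80 and 0.563% ± 0.371, so all 3 together stayed below the share of BBX24 at both time points.

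At LL36 BBX24 was followed by BBX22 and BBX21, whose ranges overlapped, and then by BBX25, BBX20, BBX18, COL2, BBX32, BBX19 and COL1, where no neighbours in the order could be separated by their ranges. At LL24 the order was BBX24, COL2 and BBX25, each separate from the next. BBX18, BBX32 and BBX21 followed with ranges that overlapped from one to the next, then COL1, BBX19 and BBX22, likewise overlapping, and BBX20 was lowest.

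**Figure D4:**
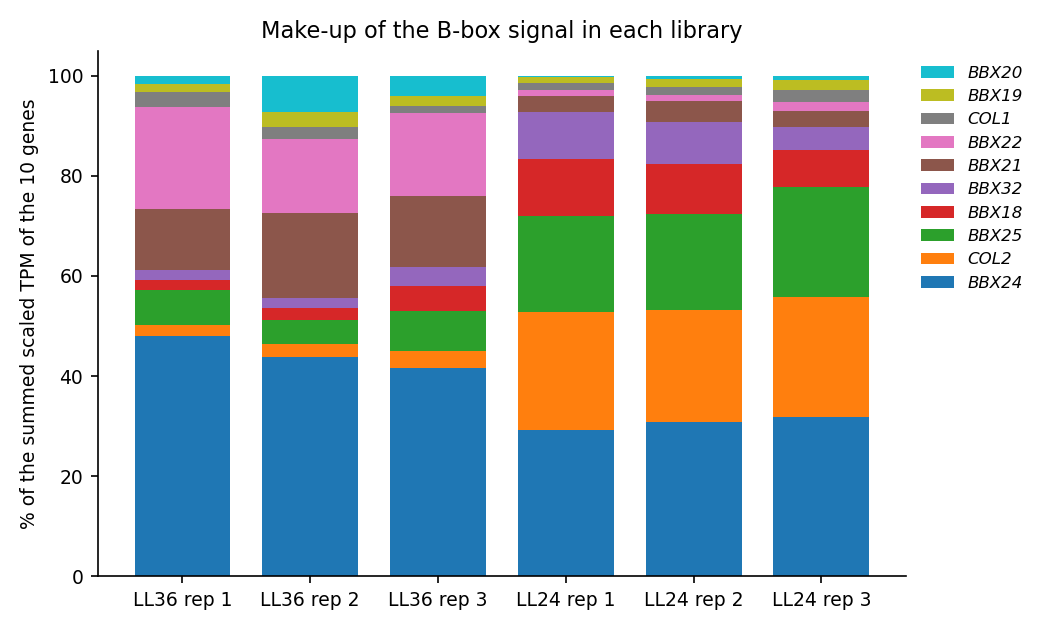
Share of each of the 10 genes in their summed scaled TPM (percent) in every library, with the 3 LL36 libraries left of the 3 LL24 libraries. With COL1 taken as listed, BBX24 is the largest share in each library. COL2 and BBX25 are wide at LL24, and BBX22 and BBX21 are wide at LL36.

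The rest of the BBX family, 22 genes, was mixed. Of the 13 that passed the limit, 6 were lower and 3 were higher at LL36, beside 13.4% and 10.2% of all tested genes. With no limit, 7 were lower and 5 higher of 19, beside 6.09% and 3.81%. COL7, BBX28, BBX30 and BBX31 passed the limit only through LL24 and COL13 only through LL36, since their mean at the other time point was below 1 scaled TPM. The median log2 difference of the 13 was −0.13. COL7, a regulator of branching in shade, had 0.0982, 0.283 and 0.219 scaled TPM at LL36, against 16.2, 14.3 and 11.2 at LL24 (log2 difference −3.62, SE 0.15, limma adjusted p = 1.76e-05), a decrease of the same order as that of COL2.

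The microproteins BBX30 and BBX31, short B-box proteins that interact with CONSTANS, were also lower at LL36. BBX30 was listed at 0 in all LL36 libraries, against 4.95, 2.14 and 2.51 scaled TPM at LL24 (limma adjusted p = 0.00116). BBX31 was listed at 0.169, 0 and 0 at LL36, against 3.75, 1.07 and 1.25 at LL24 (adjusted p = 0.0175), and its call was lost without LL36 replicate 2 (0.0558) or LL36 replicate 3 (0.0576).

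In the other direction, COL9, a repressor of flowering, had 7.46, 6.97 and 7.72 scaled TPM at LL36, against 1.13, 0.886 and 1.02 at LL24 (log2 difference 2.06, SE 0.10, limma adjusted p = 2.54e-05). COL13 was higher by 1.30 (SE 0.14, adjusted p = 0.000839) and COL8 by 0.85 (SE 0.14, adjusted p = 0.0052) on the log2 scale. For COL8 the call was lost with the TPM as deposited (0.23) and after rescaling alone (0.0507).

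Of 27 other light signalling genes, 13 passed the limit, of which 8 were lower and 3 higher at LL36, beside the same 13.4% and 10.2% of all genes tested, with a median log2 difference of −0.46. With no limit, 7 were lower and 3 higher of 26, beside 6.09% and 3.81% of the 22084 genes above 0. RUP2, SPA1 and PHYB had an LL36 mean below 1 scaled TPM and passed the limit only through LL24. HY5 itself had 1.39, 1.29 and 1.16 scaled TPM at LL36, against 3.18, 3.74 and 1.88 at LL24 (log2 difference −0.76, SE 0.19, limma adjusted p = 0.0273). The libraries did not overlap, but the call was lost without a limit (adjusted p = 0.0567) and when any library but LL24 replicate 3 was left out (0.0698 to 0.0945). HYH, the homologue of HY5, had 1.42, 1.23 and 1.80 scaled TPM at LL36, against 13.8, 14.5 and 13.9 at LL24 (log2 difference −2.61, SE 0.11, adjusted p = 2.02e-05).

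RUP2, which switches the UV-B receptor UVR8 off, was lower by 2.29 (SE 0.17, adjusted p = 0.000156) and the growth factor PIF5 by 1.91 (SE 0.10, adjusted p = 3.07e-05) on the log2 scale. UVR8 itself was higher at LL36 by 0.64 (SE 0.11, limma adjusted p = 0.00606), PIF4 by 0.59 (SE 0.12, 0.0127) and the blue light receptor CRY2 by 0.50 (SE 0.11, 0.0177). None of these 3 increases was called with the TPM as deposited or after rescaling alone. CRY2 also lost its call without LL36 replicate 1 (adjusted p = 0.0604) and without any 1 of the LL24 libraries (0.0545 to 0.0582), and PIF4 without LL36 replicate 1 (0.0513). COP1 was under the limit, with 0.656, 0.669 and 0.425 scaled TPM at LL36, against 1.38, 0.996 and 0.809 at LL24 (log2 difference −0.38 without a limit, adjusted p = 0.154).

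**Figure D5:**
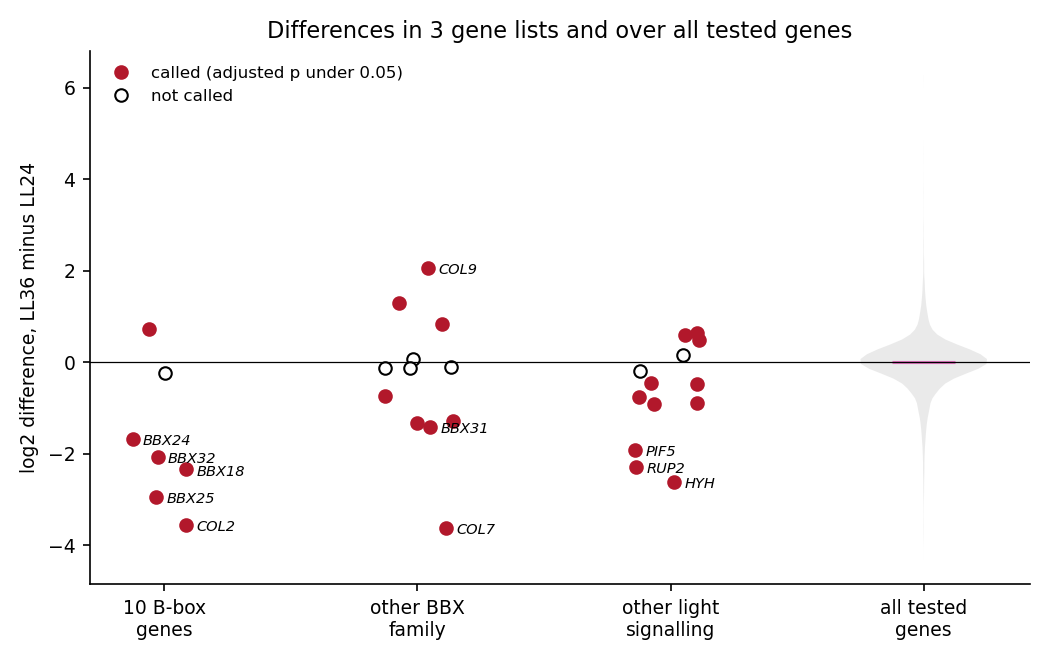
Log2 difference (LL36 minus LL24) of the tested genes of the 10 B-box genes, the other BBX family and other light signalling genes, with called genes in red and others open, beside the distribution over all 9890 tested genes with its median. BBX30, listed at 0 in all LL36 libraries, is not drawn, although it was called lower at LL36 with a fitted log2 difference of −2.01. COL2 and COL7 lie lowest of the 3 lists and COL9 highest.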

How the data were processed

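RIP-seq libraries were grouped by the time point and replicate number in their titles. Per the labels, GFP-Trap beads went through washes of 2 M urea and of 500 mM NaCl, and RNA was sequenced without selection for poly(A), as single-end reads of 100 nt. The authors aligned reads with STAR 2.5.2a to the AtRTD transcripts, estimated abundances with Salmon 0.8.2, summed them per gene and left out rRNA and organelle genes. None of the sources states the use of strand. TPM per gene was deposited, a unit that holds no depth, so no counting interval was computed. A further 6 columns matched no sample and were not used.

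Listed TPM were rescaled to 1000000 per library and divided by an unweighted trimmed mean of log ratios (30% of ratios and 5% of abundances trimmed at each end). Genes with a mean rescaled TPM of 1 or more (9890) were fitted as log2(scaled TPM + 1) in limma 3.58.1 (R 4.3.3) with lmFit and a trend in eBayes, two-sided, with Benjamini-Hochberg adjustment over all of them; differences of low genes are understated by the pseudocount. The script was tested on simulated data. Every adjusted p-value is from limma. Of the gene IDs, 32811 matched TAIR10.1 (RefSeq), whose sequences were read with Python 3.11.15. The genes and lists were chosen with earlier results of these data known. Named were all 10 genes, the 3 largest called increases and decreases of each further list, HY5, COP1 and AtGRP7. The alternatives were other scalings, pseudocounts and limits, no trend, a replicate block and leaving out each library.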

Additional observations from a re-analysis of the deposited data

How the results depend on the processing

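The directions and calls of COL2, BBX25, BBX18, BBX32 and BBX24 held under every alternative that could test them, with log2 differences of −5.08 to −1.63 for COL2, −3.86 to −1.42 for BBX25, −3.74 to −0.87 for BBX18, −3.48 to −0.71 for BBX32 and −1.83 to −1.23 for BBX24. BBX21 was called under none, and BBX22 lost its call under 2 scalings. The number of the 10 genes called was 6 without each library in turn, beside 1553 to 1895 of the 9890 genes tested. It was 8 without a limit, beside 2187 of 22084 genes. It was 3 with a mean rescaled TPM of 5 or more, where fewer genes were tested and 1291 of 3774 were called. None of the 10 reached a mean deposited TPM of 5, a limit that 789 genes passed. The study itself left out transcripts under 5 TPM in RIP-seq before it named AtGRP7 targets. Whether its TPM were on the deposited or a rescaled scale is not stated. The number of transcripts it kept at LL36 was closer to the 3774 genes at the rescaled limit than to the 789 at the deposited one. In scaled TPM, the LL24 means of BBX24, COL2, BBX25 and BBX18 were 19.4, 14.7, 12.7 and 6.08. BBX20, under the limit, turned to −0.0086 on the log2 scale without LL36 replicate 2, an alternative chosen after seeing the data.

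Over all 9890 genes tested, 2343 were called (1013 higher, 1330 lower), against 1204 with the TPM as deposited and 1266 after rescaling alone. The count was 1291 of 3774 genes at a rescaled limit of 5 and 304 of 789 at a deposited limit of 5. Without each library it was 1553 to 1895 of the 9890, and the fewest came without LL36 replicate 1. The share of calls that were higher was 43.2%, against 20.8% as deposited, 28.8% after rescaling alone and 57.2% at the deposited limit of 5, where the median log2 difference of all genes was −0.09, −0.08 and 0.10. Light signalling genes called fell to 6 with either of the first 2 and without LL36 replicate 1, and to 7 without LL24 replicate 1, of 11.

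Same-numbered libraries did not deviate together (correlations 0.02, −0.03 and −0.07), so the numbers were not read as pairs. With the replicate number as a block, 1648 genes and 6 of the 10 were called, and among the genes named CRY2 lost its call (adjusted p = 0.0504).

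Levels below 1 scaled TPM are far below 1 in deposited TPM, and the depth is not known, which limits COL1, BBX19, BBX20 and the LL36 values of COL2, BBX18, BBX25 and BBX32.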
